A study of Mus musculus with 4 samples.

Results

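Among 14479 Pax7-positive cells in 4 single-cell RNA-seq libraries of mouse muscle, 104 cells (0.718%) held transcripts of 2 or more of the genes Hhip, Dlk1, Car3 and Tmem171. These marker-positive cells were chosen by detection of transcripts alone. Each had 1000 to 5000 genes, at most 8% mitochondrial unique molecular identifiers (UMIs), at least 1 Pax7 UMI and at least 1 UMI of 2 or more of the 4 genes. None held a UMI of Myog, Top2a, Cdh5, Sox10 or Ptprc, which mark differentiating, cycling, endothelial, glial and white blood cells. They were compared with 13624 marker-negative cells that met the same conditions and held no UMI of the 4 genes. Another 751 cells held exactly 1 of the 4 genes and are called single-marker cells. The whole data set had 27425 barcodes, of which 20850 lay within the limits on genes and mitochondrial UMIs.

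The libraries profiled satellite cells, the Pax7-expressing stem cells of skeletal muscle, to ask how they differ between healthy and dystrophic mice. Hindlimb muscle was pooled from 2 mice for each library, and the cells were sorted as negative for Cd11b, Sca1, Cd45 and Cd31 and positive for α7-integrin and VCAM1. The strains were C57/Bl10ScsSn (B10) at 15 weeks of age, C57BL/10ScSn-Dmdmdx (mdx) at 11 weeks, DBA/2 (DBA) at 13 weeks and D2.B10-Dmdmdx (D2-mdx) at 14 weeks. The mdx and D2-mdx mice carry the Dmdmdx allele, which removes full-length dystrophin and models Duchenne muscular dystrophy, and B10 and DBA are their controls. No mouse received a treatment. Each strain had 1 library, so strain, age and library cannot be told apart, and no difference between strains in a share or level was tested. Values for the 4 libraries are given below in the order B10, mdx, DBA and D2-mdx unless they are named. The library totals were 49191944, 67156373, 43542853 and 75482888 UMIs.

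Hedgehog ligands bind the receptor Ptch1, which relieves the block on Smo and lets GLI transcription factors switch on target genes. Among these targets are Gli1, Ptch1 and Hhip itself, a membrane protein that captures Hedgehog ligands and so limits the signal. Dlk1 is a transmembrane protein related to Notch ligands, imprinted and known in muscle for its part in growth and regeneration. Car3 is a carbonic anhydrase abundant in slow muscle fibres and fat, and Tmem171 is a transmembrane protein. In the mouse assembly mm10, Hhip lies at chr8:79965851-80058006 on the minus strand, Dlk1 at chr12:109452823-109463336 on the plus strand, Car3 at chr3:14863512-14872523 on the plus strand and Tmem171 at chr13:98686235-98694834 on the minus strand. These spans are whole protein-coding genes.

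Few of the marker-positive cells expressed Hhip and Dlk1 together. A UMI of both was found in 9 of the 104 cells (8.65%), of which 6 were B10 cells, 2 mdx cells and 1 a D2-mdx cell. The pair that recurred was Hhip with Tmem171, present in 70 cells (67.3%), and 65 of these held neither Dlk1 nor Car3. Tmem171 was detected in 85 cells, Hhip in 79, Car3 in 29 and Dlk1 in 26. Dlk1 and Car3 occurred together in 16 cells. The set is therefore described by its rule and not as cells that express Hhip and Dlk1. Exactly 2 of the genes were found in 95 cells, 3 genes in 7 cells and all 4 in 2 cells.

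The marker-positive cells were unevenly spread over the libraries. They were 21 of 4515 eligible cells in B10 (0.465%, 95% exact Clopper-Pearson interval 0.288 to 0.710%) and 4 of 4015 in mdx (0.0996%, 0.0272 to 0.255%). They were 40 of 2730 in DBA (1.47%, 1.05 to 1.99%) and 39 of 3219 in D2-mdx (1.21%, 0.863 to 1.65%). The share was lowest in mdx and highest in DBA, and the intervals of DBA and D2-mdx overlapped. These intervals cover counting error only, not the spread between mice. Median depth in eligible cells was 8481, 6814, 10300 and 6187 UMIs, and detection moves with depth. With every cell thinned to 3000 UMIs, which left out 36 eligible B10 cells as too shallow, and the whole rule applied to the thinned counts, 4076, 3376, 2333 and 2807 cells were eligible. The shares of these were 0.147%, 0%, 0.343% and 0.677%, so that D2-mdx and no longer DBA was highest. With Car3 left out of the rule, D2-mdx fell to 24 cells (0.746%) and DBA to 37 (1.36%).

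**Figure D1:**
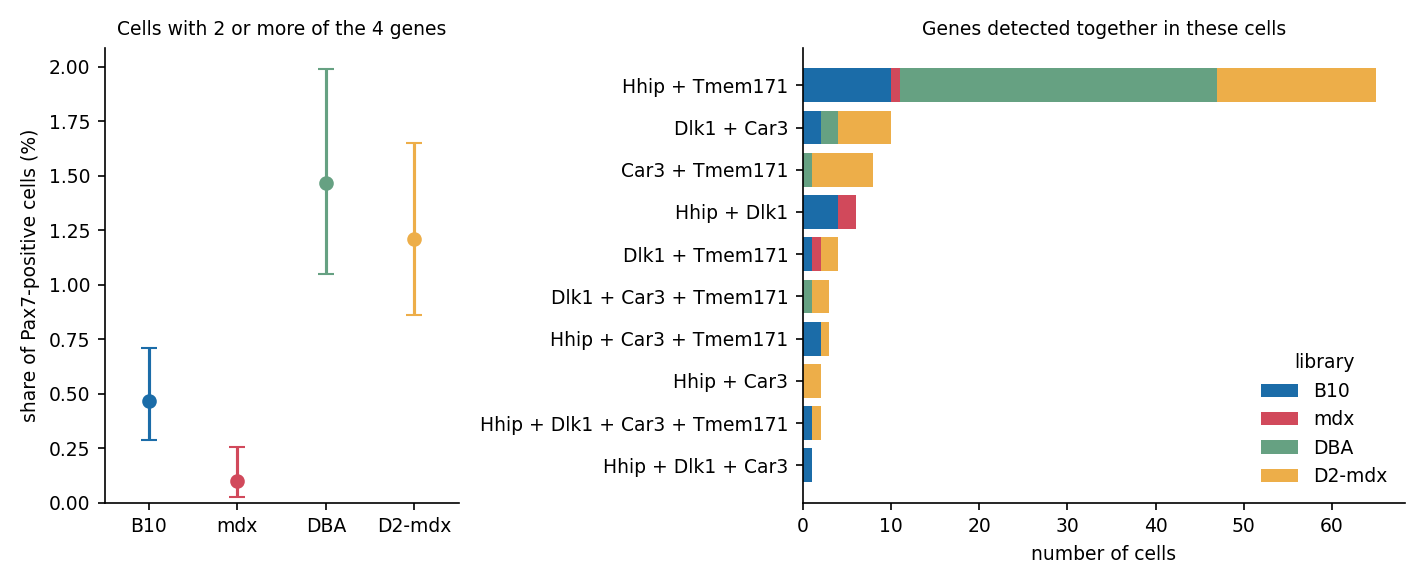
Left, the share of eligible Pax7-positive cells with 2 or more of Hhip, Dlk1, Car3 and Tmem171 in each library, in percent, with exact 95% binomial intervals. Right, the number of these cells with each combination of genes, stacked by library. The Hhip and Tmem171 pair alone makes up 65 of the 104 cells, 36 of them from DBA.

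The make-up of the cells also differed between libraries. In DBA, 36 of 40 cells held only Hhip and Tmem171, and Dlk1 was found in 3 cells and Car3 in 4. In D2-mdx, 18 of 39 cells held only Hhip and Tmem171, and Car3 was found in 19. In B10, 10 of 21 cells held only Hhip and Tmem171, and 9 held Dlk1. Among the 4 mdx cells, 2 had Hhip with Dlk1, 1 had Hhip with Tmem171 and 1 had Dlk1 with Tmem171. Joint detection of Hhip and Tmem171 exceeded the product of their separate detection rates: 36 cells against a product of 5.92 in DBA, 20 against 1.88 in D2-mdx and 13 against 1.97 in B10. Dlk1 with Car3 gave 9 cells against 0.664 in D2-mdx, 4 against 0.459 in B10 and 3 against 0.0857 in DBA. After thinning to 3000 UMIs, Hhip with Tmem171 gave 6 cells against 0.720 in DBA, 7 against 0.574 in D2-mdx and 4 against 0.297 in B10. These counts describe the choice of cells and carry no test.

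The levels of the rule genes likewise describe the choice. Levels are given as CPM, the summed UMIs of a gene in the cells scaled to a total of 1000000. In marker-positive cells Hhip stood at 149 (B10), 93.6 (mdx), 162 (DBA) and 130.1 (D2-mdx) CPM. Dlk1 stood at 505 (B10), 112 (mdx), 31.5 (DBA) and 138 (D2-mdx) CPM. The mdx value of Hhip rests on 5 UMIs, and Hhip was among the genes that chose the cells, so these values do not compare the libraries. Over all eligible Pax7-positive cells Hhip stood at 3.23 (B10), 0.893 (mdx), 6.21 (DBA) and 2.72 (D2-mdx) CPM. Among marker-positive cells Dlk1 had its highest value in B10, where 1 cell held 38 of the 122 UMIs. Car3 gave 190.4 (B10), 0 (mdx), 88.2 (DBA) and 294 (D2-mdx) CPM, and Tmem171 gave 120.004 (B10), 37.4 (mdx), 153 (DBA) and 230.4 (D2-mdx) CPM. At the edge of the rule, 26 cells had just 2 UMIs of the 4 genes, 44 had 3 to 5 and 34 had more than 5. Just outside it, 561 of the 751 single-marker cells had 1 UMI, 190 had 2 or more and 20 had more than 5.

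In Pax7-negative cells with endothelial, glial or white blood cell genes Hhip was rarely detected, while the other genes were found more often in some libraries. Other Pax7-negative cells were not counted. In cells with a UMI of Cdh5, Sox10 or Ptprc and none of Pax7, Hhip was found in 0 of 36, 0 of 644, 0 of 35 and 1 of 439 cells. At a limit of 3 counts, those zeros allow up to 8.33%, 0.466% and 8.57% of such cells to hold a UMI, for counting error only. The limits in B10 and DBA lie above the shares of Pax7-positive cells with Hhip there, 1.68% and 3.77%. In mdx, the same cells held Dlk1 in 1.55%, Car3 in 1.24% and Tmem171 in 0.311%, against 1.30%, 0.523% and 0.249% of Pax7-positive cells, at median depths of 6592 and 6814 UMIs. In D2-mdx, Car3 was found in 2.73% of them against 2.76% of Pax7-positive cells, at 7445 and 6187 UMIs. At the level of shares, detection of Dlk1, Car3 and Tmem171 in mdx and of Car3 in D2-mdx was thus not read as expression. Single Pax7-positive cells held more, up to 44 UMIs of Dlk1 and 14 of Car3 in mdx and 18 of Car3 in D2-mdx, against 6, 6 and 5 in the other cells. In D2-mdx, Tmem171 was found in 2.28% of those cells against 4.01% of Pax7-positive cells, and Dlk1 in 0.228% against 0.746%. In DBA, Car3 was found in 4 of the 35 cells (11.4%) against 0.659% of Pax7-positive cells, at 10972 and 10300 UMIs, with up to 13 UMIs in 1 of them and 20 in 1 Pax7-positive cell, and this share was not read as expression either. Car3 made up 11.9 CPM of 4278 B10 barcodes with fewer than 500 genes, which hold mostly free RNA, against 2.03 CPM in Pax7-positive cells. Hhip made up 1.55 CPM of the same barcodes against 3.23 CPM in Pax7-positive cells. The mdx, DBA and D2-mdx libraries had only 14, 11 and 14 such barcodes, with medians of 7975.5, 12822 and 6757 UMIs. Free RNA could therefore not be measured in them.

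Transcripts of satellite cell identity were present in marker-positive cells. Of 21 identity genes, all tested, 1 was higher and 1 lower (9.52%, median log2 fold change -0.15), beside 1.99% of all genes called. DESeq2 called 1 of the 21, and 9 had an unadjusted edgeR p under 0.05. Myf5, a myogenic determination factor, stood at 439, 617, 439 and 327 CPM in marker-positive cells of B10, mdx, DBA and D2-mdx and at 477, 465, 423 and 388 CPM in marker-negative cells (log2 fold change -0.10, SE 0.15, adjusted p = 0.979). Vcam1, an adhesion receptor used in the sort, had a log2 fold change of -0.07 (SE 0.15), and the cadherin Cdh15 one of -0.15 (SE 0.16). The syndecan Sdc3 was higher (1.73, SE 0.32), and Msc, a repressor of MyoD activity, was lower (-0.87, SE 0.18), though not without D2-mdx. No barcode of a marker-positive cell occurred in another library, although 5 to 16 barcodes were shared by each pair of libraries. Predicted doublets were 3 of the 104 cells, all in D2-mdx.

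Depth was a difference between the classes. The median marker-positive cell held 11662, 12446, 10905.5 and 6038 UMIs, and the median marker-negative cell 8373, 6759, 10257.5 and 6179. Marker-positive cells were thus deeper in 3 libraries. Summed over cells, the marker-positive class had 241659, 53445, 476095 and 269090 UMIs. In the mdx class of 4 cells, 1 UMI equals 18.7 CPM, and levels there rest on few molecules.

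Transcripts of the other genes were tested with UMIs summed per library and class, giving 8 sums with the library as a block. This used edgeR's quasi-likelihood test with Benjamini-Hochberg adjustment over 11918 genes. The 4 rule genes had led a cluster in an earlier clustering of the same cells. The p-values are therefore not independent evidence that the cells form a group. They set a difference against a spread over 4 libraries of different strains that edgeR estimates partly from all genes together. A small p-value or SE can thus go with a ratio that varied between libraries. In all, 237 genes (1.99%) passed an adjusted p of 0.05, 142 (1.19%) of them higher and 95 (0.797%) lower in marker-positive cells. DESeq2 gave 71 higher and 15 lower. The higher genes numbered 90 without B10, 90 without DBA and 82 without D2-mdx, and the lower genes 40 without B10. The direction was shared by all 4 libraries for 68 of the higher and 81 of the lower genes. Among the higher genes, 29 had UMIs in fewer than 10 marker-positive cells, and 1 cell held over 25% of the UMIs of 23.

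**Figure D2:**
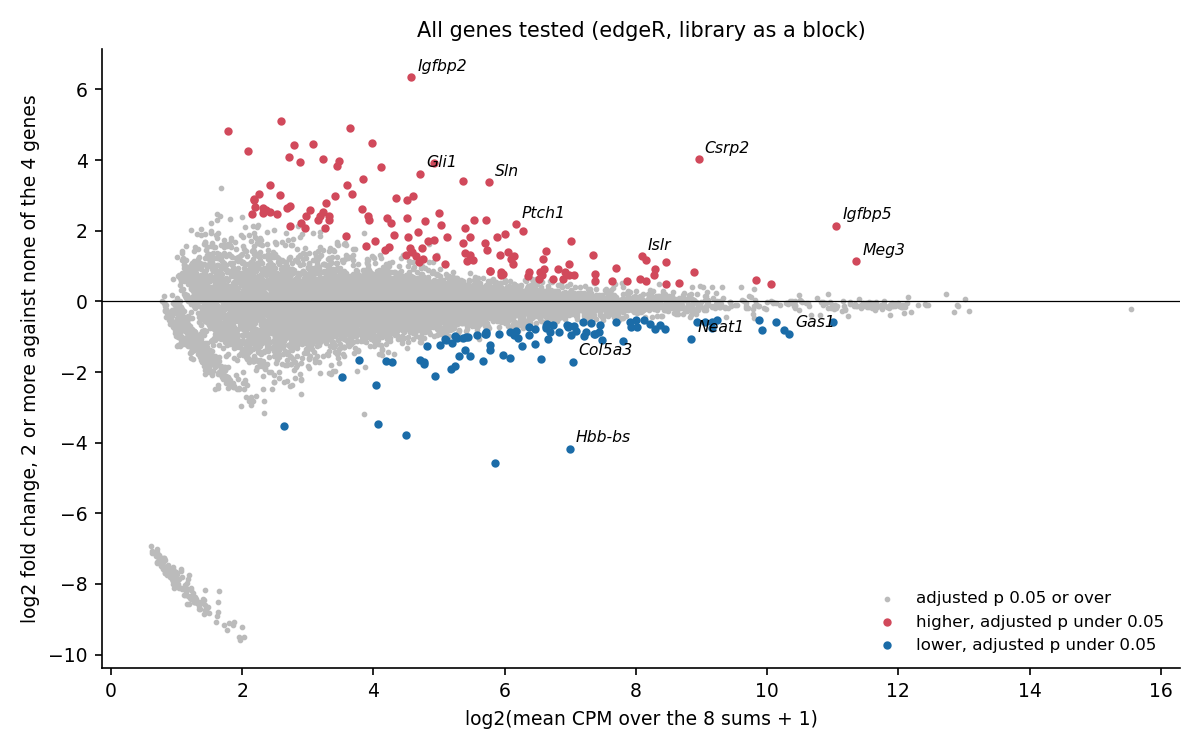
Each point is 1 of the 11918 genes tested, with log2(mean CPM over the 8 sums + 1) on the horizontal axis and the log2 fold change of marker-positive against marker-negative cells on the vertical axis. The 142 higher genes are red and the 95 lower genes blue; the separate grey points at the lower left are 141 genes with 0 UMIs in marker-positive cells, whose fitted values depend on the prior count.

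The Hedgehog target genes Ptch1 and Gli1 were higher in marker-positive cells of all 4 libraries. Ptch1, a receptor and target (chr13:63508328-63573598), stood at 190.4 (B10), 37.4 (mdx), 90.3 (DBA) and 149 (D2-mdx) CPM, against 28.7, 21.6, 27.2 and 23.7 CPM in marker-negative cells. The marker-positive values lay above every marker-negative value, and mdx, with 2 UMIs, was the lowest. Ptch1 was 4.59-fold higher (log2 fold change 2.20, SE 0.21, adjusted p = 7.97e-22) and was detected in 60 of the 104 cells (57.7%), against 19.4% of marker-negative cells drawn to the UMI deciles of the marker-positive cells within each library and weighted by library as those cells are. Gli1, the transcription factor that amplifies the signal (chr10:127329882-127341974), stood at 70.3 (B10), 37.4 (mdx), 42.0 (DBA) and 37.2 (D2-mdx) CPM, against 4.17, 1.84, 3.79 and 3.72 CPM. The groups did not overlap, though the mdx value of Gli1 also rests on 2 UMIs. Gli1 was 12.3-fold higher (log2 fold change 3.62, SE 0.43, adjusted p = 2.91e-14), with UMIs in 33 cells (31.7%) against 3.30% of depth-drawn marker-negative cells. Both genes were also called when any 1 library was left out and with DESeq2. With cells thinned to 3000 UMIs, Ptch1 had a log2 fold change of 1.46 (adjusted p = 0.443) and Gli1 one of 1.46 (adjusted p = 0.795), and neither passed when 3 or more of the 4 genes were required of a cell.

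**Figure D3:**
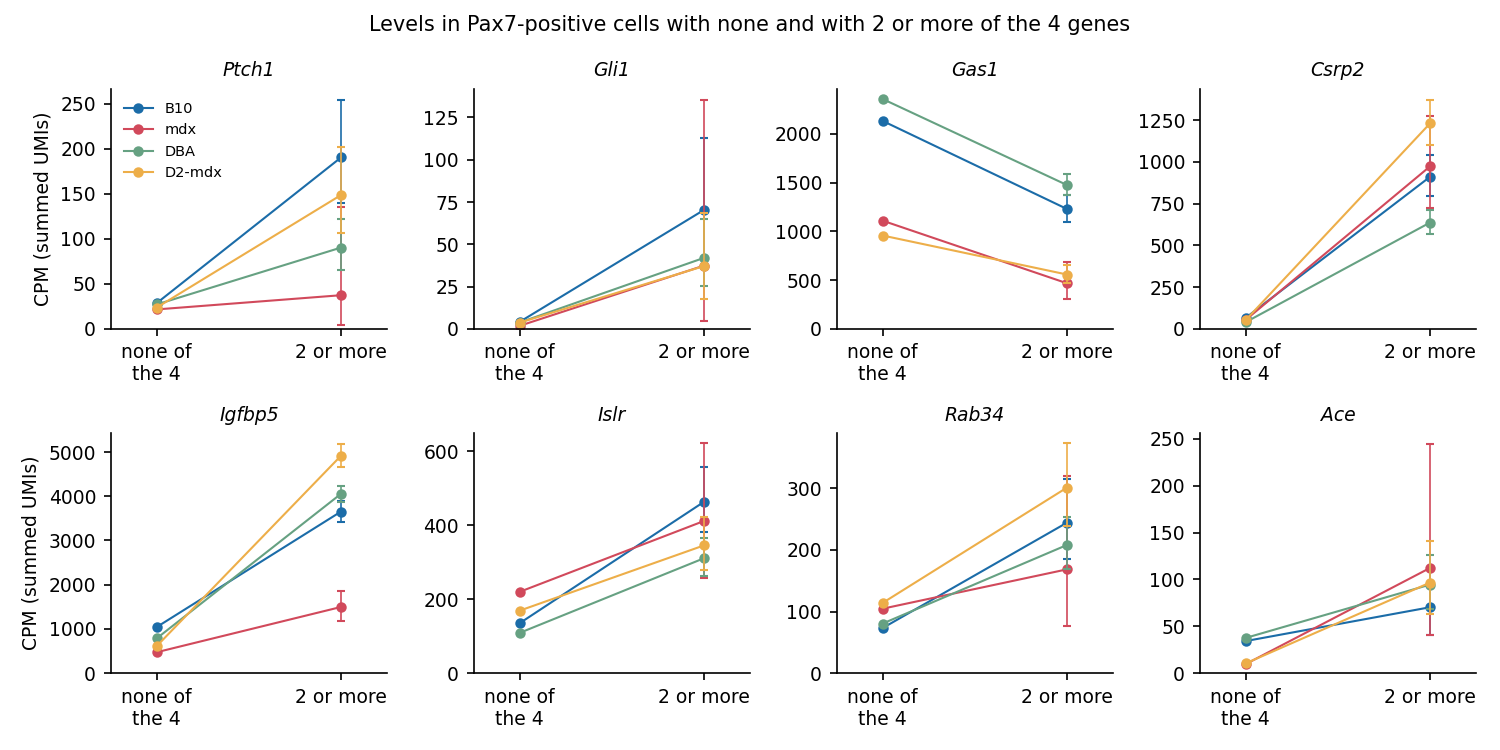
CPM of 8 genes in marker-negative cells (none of the 4 genes) and marker-positive cells (2 or more) of each library, joined by a line; bars on the marker-positive values are exact 95% Poisson intervals for counting error. Ptch1, Gli1, Csrp2, Igfbp5, Islr, Rab34 and Ace rise and Gas1 falls in each of the 4 libraries.

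Of 18 listed Hedgehog genes other than Hhip, 12 were tested, 2 were higher and 1 was lower (25%, beside 1.99% of all genes), with a median log2 fold change of 0.29 beside -0.09 over all genes tested. Gas1, a co-receptor that helps cells receive Hedgehog ligands (chr13:60174405-60177365), fell in every library. It stood at 1229 (B10), 468 (mdx), 1474 (DBA) and 557 (D2-mdx) CPM, against 2131, 1109, 2356 and 957 CPM. The decrease was 1.89-fold (log2 fold change -0.91, SE 0.14, adjusted p = 7.31e-08). Smo, the signal transducer, had a log2 fold change of 0.40 (SE 0.21, adjusted p = 0.662). The co-receptors Cdon (0.32, SE 0.16) and Boc (0.45, SE 0.40), the inhibitor Sufu (0.69, SE 0.49) and the factors Gli2 (-0.12, SE 0.42) and Gli3 (0.26, SE 0.63) did not pass either. Of the ligands, Shh, Ihh and Dhh had 0 UMIs in marker-positive cells. In marker-negative cells the most abundant of them in any library was Dhh at 0.286 CPM in mdx.

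Csrp2 and Igfbp5 had adjusted p-values far below those of the Hedgehog targets. Csrp2, a LIM-domain protein known in smooth muscle and other mesenchymal cells (chr10:110919789-110939622), stood at 910.4 (B10), 973 (mdx), 636 (DBA) and 1230.1 (D2-mdx) CPM, against 66.3, 54.1, 40.3 and 52.8 CPM. It was 16.3-fold higher (log2 fold change 4.02, SE 0.15, adjusted p = 4.71e-146). Every marker-positive value was far above every marker-negative value, and 86 of the 104 cells held a UMI, against 26.2% of depth-drawn marker-negative cells. Igfbp5, a secreted protein that binds insulin-like growth factors (chr1:72857932-72874884), stood at 3654 (B10), 1497 (mdx), 4056 (DBA) and 4917 (D2-mdx) CPM, against 1043, 474, 787 and 612 CPM. All 104 cells held it, against 69.7% of depth-drawn cells, and it was 4.42-fold higher (log2 fold change 2.14, SE 0.14, adjusted p = 4.01e-46). The lowest marker-positive library, mdx, was still above the highest marker-negative library.

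Smaller rises were shared by all 4 libraries. Islr, a secreted leucine-rich-repeat protein of stromal cells, stood at 463 (B10), 412 (mdx), 311 (DBA) and 346 (D2-mdx) CPM, against 135, 220.05, 109 and 169 CPM (log2 fold change 1.27, SE 0.15). App, the amyloid precursor protein, rose by 0.93 (SE 0.15) on the log2 scale, the actin-linked Pdlim4 by 0.60 (SE 0.14, not passing without D2-mdx), the transcription factor Cux1 by 0.51 (SE 0.15) and the calcium-binding S100a6 by 0.50 (SE 0.14). The last 2 passed narrowly, with adjusted p-values of 0.0369 and 0.0223 in edgeR. Cux1 did not pass without B10, DBA or D2-mdx, and S100a6 did not pass without B10 or DBA. With 3 or more of the 4 genes required, S100a6 turned to -0.57 (adjusted p = 0.846). Meg3, a maternally expressed long noncoding RNA in the same imprinted cluster as Dlk1, rose by 1.15 (SE 0.14). It stood at 5851 (B10), 2713 (mdx), 2556 (DBA) and 2196 (D2-mdx) CPM, against 4249, 873, 2168 and 308 CPM, and did not pass in DESeq2. The marker-negative level of Meg3 in B10 lay within the range of the marker-positive libraries, so the groups overlapped.

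Of 17 tested genes of the FGF and IGF list, 4 were higher and none was lower (23.5%, beside 1.99% of all genes), with a median log2 fold change of 0.04, and DESeq2 called 4. Igf1, the growth factor itself, rose by 1.17 (SE 0.16), from 172, 58.0, 443 and 77.9 CPM to 389, 225, 567 and 349 CPM in B10, mdx, DBA and D2-mdx. Igfbp7 rose by 1.12 (SE 0.16), though in DBA it stood at 118 CPM against 129 CPM. Igfbp2 had the highest fitted fold change of the list (6.34, SE 0.53) with UMIs in 11 cells, at 4.14 (B10), 37.4 (mdx), 27.3 (DBA) and 111 (D2-mdx) CPM against less than 1 CPM in each marker-negative class. Wnt5a, a ligand of the non-canonical Wnt pathway, rose by 3.46 (SE 0.55) with UMIs in 15 cells. Axin2, a target of canonical Wnt signalling, rose by 2.35 (SE 0.44) with UMIs in 16 cells, but with Car3 left out of the rule its log2 fold change was 0.47 (adjusted p = 0.991). The Wnt list had 26 tested genes, no other of which passed (7.69% called), and a median of 0.02. Of 34 tested genes of the BMP and TGF-beta list, Tgfb2, Smad7 and Id1 were higher and Inhbb was lower (11.8%, median 0.11), and DESeq2 called none. Inhbb, an activin subunit, did not pass without B10, mdx or D2-mdx.

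Single genes of contractile and slow muscle were higher in the fit. Sln, the sarcolipin that restrains the calcium pump, stood at 112 (B10), 0 (mdx), 58.8 (DBA) and 219 (D2-mdx) CPM, against 12.9, 4.64, 11.7 and 6.31 CPM (log2 fold change 3.38, SE 0.29, 24 cells). It was high in 3 libraries and listed at 0 in mdx. In DESeq2 it missed the threshold (adjusted p = 0.0771). The slow troponin Tnnt1 stood at 265 (B10), 18.7 (mdx), 109 (DBA) and 390.2 (D2-mdx) CPM, against 70.3, 54.9, 60.9 and 51.1 CPM (log2 fold change 1.72, SE 0.17), with mdx below its own marker-negative cells. Of 6 tested slow-fibre genes Tnnt1 and Tnnc1 were higher (33.3%, beside 1.99% of all genes), with a median log2 fold change of 1.82 and 1 called by DESeq2. Car3, abundant in slow fibres, was among the genes that chose the cells, so these counts are not independent of the rule. Of 14 tested fast-fibre genes none was higher and Actn3 was lower (7.14%, median -0.42), though not without B10 or DBA. Of 14 tested muscle differentiation genes, Tnnt2 and Actc1 were higher and Utrn lower (21.4%, beside 1.99% of all genes, median 0.19), none of them called by DESeq2. Utrn, which encodes utrophin, a relative of dystrophin, had a log2 fold change of -0.69 (SE 0.18, adjusted p = 0.0122), was lower in all 4 libraries, and did not pass without B10 or D2-mdx. Tnnt2 (4.90, SE 0.57) and Actc1 (3.96, SE 0.58), the cardiac and embryonic forms, were higher with UMIs in 7 and 8 cells. These are counts in few cells, and Myog-positive cells had been left out by the rule.

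Further genes with the smallest p-values were named after their values were seen. Dbx1, a homeobox transcription factor of the neural tube, stood at 70.3 (B10), 0 (mdx), 60.9 (DBA) and 81.8 (D2-mdx) CPM, against 9.16, 6.93, 1.60 and 3.09 CPM (log2 fold change 3.91, SE 0.37). Thrsp, a regulator of fatty acid synthesis, was far more abundant in B10 (166 CPM) than in mdx (56.1), DBA (31.5) and D2-mdx (29.7), and in each library it exceeded the marker-negative value of 30.7, 6.48, 1.27 and 0.681 CPM. Rab34, a small GTPase needed for primary cilia, the organelle through which Hedgehog signals pass, stood at 244 (B10), 168 (mdx), 208 (DBA) and 301 (D2-mdx) CPM, against 73.2, 105, 80.5 and 114 CPM. The rise of Rab34 was 2.51-fold (log2 fold change 1.33, SE 0.16, adjusted p = 8.14e-14), and 85 cells held it. Svep1, a large secreted adhesion protein, rose by 1.91 (SE 0.24), the peptidase Ace by 1.83 (SE 0.25), the potassium channel subunit Kcne4 by 2.31 (SE 0.24) and the guanine nucleotide exchange factor Net1 by 1.99 (SE 0.21) on the log2 scale. Kcne4 was at 0 UMIs in the mdx class, and the others were higher in all 4 libraries. Smoc1, a secreted antagonist of BMP signalling, rose by 4.03 (SE 0.57) with UMIs in 14 cells, but stood at 0 CPM in the mdx class.

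Among the genes lower in marker-positive cells were Col5a3, Pcdh7, Htra3 and Nppc. Col5a3, a fibrillar collagen chain, stood at 33.1 (B10), 93.6 (mdx), 77.7 (DBA) and 52.0 (D2-mdx) CPM, against 136, 237, 176 and 236 CPM (log2 fold change -1.71, SE 0.20, adjusted p = 6.63e-14). The highest marker-positive value was below the lowest marker-negative one. Pcdh7, a protocadherin, stood at 37.2, 56.1, 58.8 and 26.0 CPM against 130, 176, 121 and 136 CPM (-1.64, SE 0.22), again with no overlap. The serine protease Htra3 fell by 1.11 on the log2 scale, the intermediate filament Nes by 1.67, Nrep by 1.61 and the noncoding RNA Neat1 by 1.05, each in all 4 libraries. Nppc, the natriuretic peptide precursor, stood at 931 (B10), 18.7 (mdx), 1626 (DBA) and 472 (D2-mdx) CPM, against 1511, 363, 2071 and 773 CPM (-0.81, SE 0.15). Fam132b, which encodes the hormone erythroferrone, fell by 1.10 (SE 0.18) and the lipoprotein component Apoe by 0.81 (SE 0.15). Of 33 tested matrix genes, 1 was higher and 4 were lower (15.2%, beside 1.99% of all genes), with a median of -0.38, and DESeq2 called 1. The lower genes were Col5a3, Col3a1, Col15a1 and Lamc1, of which Col3a1 and Lamc1 did not pass without B10, DBA or D2-mdx.

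Of 4 tested erythrocyte genes, Hba-a1, Hbb-bs and Hbb-bt were called lower in edgeR (75%, beside 1.99% of all genes), and DESeq2 called 1. The erythrocyte genes summed to 18.7 (mdx), 12.6 (DBA) and 26.0 (D2-mdx) CPM in marker-positive cells, against 584, 326 and 681 CPM in marker-negative cells. In B10 the sum was 29.0 CPM against 24.3 CPM, and Hba-a1 and Hbb-bt were above their marker-negative levels there. Hbb-bs stood at 8.28 (B10), 18.7 (mdx), 10.5 (DBA) and 18.6 (D2-mdx) CPM, against 14.7, 310.03, 189 and 438 CPM (log2 fold change -4.17, SE 0.30). It was detected in 12.5% of marker-positive cells and in 15.5% of depth-drawn marker-negative cells. In marker-negative cells 93.2% of its UMIs lay in the top 1% of cells, so its summed level follows a handful of cells. Such concentration, with over 25% of the UMIs in the top 1% of marker-negative cells, held for 12 of the 95 lower genes.

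The remaining lists differed in how many of their genes passed. Of 192 tested genes in a published list for genuine quiescence that the study scored, 9 were higher and 28 lower (19.3% called, beside 1.99% of all genes), with a median log2 fold change of -0.28, and DESeq2 called 8 of them. Among its higher genes were Meg3, Svep1, Kcne4 and Lepr, the leptin receptor, and among its lower genes Htra3, Thy1, Vtn and Fam132b. The published primed core list had 9 higher and 7 lower of 138 tested (11.6%, median -0.06), of which DESeq2 called 2. The satellite cell list had Nppc, Pde10a and Fam132b lower of 9 tested (33.3%, median -0.10), with Pde10a not passing without B10, and DESeq2 called 1. Thy1 did not pass without DBA. None of the 18 tested Notch genes passed with edgeR or DESeq2, and 2 had an unadjusted edgeR p under 0.05. Notch1 had a log2 fold change of -0.40 (SE 0.19), Notch3 0.05 (SE 0.16), Hes1 0.24 (SE 0.15) and Heyl 0.20 (SE 0.15), and the list median was -0.05. Of 24 tested imprinted genes, Meg3 and the zinc finger factor Plagl1 were higher (8.33%, median 0.04), and DESeq2 called neither. Plagl1 stood at 269 (B10), 37.4 (mdx), 35.7 (DBA) and 104 (D2-mdx) CPM against 36.0, 194, 15.8 and 68.5 CPM, so that mdx ran the other way. No gene passed with edgeR or DESeq2 among 22 tested cell cycle genes, 19 tested interferon-induced genes and 19 tested antioxidant and metallothionein genes, where 2, 2 and 3 genes had an unadjusted edgeR p under 0.05. Of 33 tested immediate-early and stress genes, Maff was higher and Klf6 lower (6.06%), the latter not without B10 or D2-mdx, and DESeq2 called neither. Of 29 tested positional genes none passed with edgeR or DESeq2, and 1 had an unadjusted edgeR p under 0.05. Of 20 tested lipid handling genes Lpl alone was lower (5%), though not without B10 or in DESeq2, which called none. The carbonic anhydrases other than Car3 gave 3 tested genes, none with an edgeR p under 0.05 and none called by DESeq2.

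Single-marker cells, which the rule left out, were described by which of the 4 genes they held. Hhip alone was found in 168 cells, Dlk1 alone in 119, Car3 alone in 136 and Tmem171 alone in 328. From mdx came 49 Dlk1-only, 21 Car3-only and 8 Tmem171-only cells, and from DBA and D2-mdx 14 and 70 Car3-only cells. These shares were not read as expression above, so low values in such classes cannot show that a gene goes without a transcript. Gli1 had a mean over the 4 libraries of 45.0 CPM ± 19.8 (SD, n = 4) in Hhip-only cells, 46.7 ± 15.9 in marker-positive cells and 3.38 ± 1.04 in marker-negative cells. In Tmem171-only cells it was 17.5 ± 7.48, in Dlk1-only cells 4.87 ± 3.89 and in Car3-only cells 2.01 ± 2.90. These 3 means rest on 47, 7 and 3 UMIs of Gli1. The means of Hhip-only and marker-positive cells lay within 1 SD of each other, and every library of them exceeded its marker-negative cells. Ptch1 averaged 102 CPM ± 30.9 in Hhip-only cells, 43.5 ± 24.8 in Tmem171-only, 43.8 ± 11.7 in Car3-only, 19.8 ± 9.93 in Dlk1-only and 25.3 ± 3.19 in marker-negative cells, beside 117 ± 66.9 in marker-positive cells.

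Igfbp5 was also highest with Hhip, with 3290.3 CPM ± 766 in Hhip-only cells, 1775 ± 780 in Dlk1-only, 1326 ± 340 in Tmem171-only, 770.5 ± 277 in Car3-only and 729 ± 245 in marker-negative cells. Csrp2 averaged 491 CPM ± 331 in Hhip-only and 386 ± 238 in Dlk1-only cells, against 159 ± 136 in Tmem171-only, 116 ± 83.6 in Car3-only and 53.4 ± 10.6 in marker-negative cells. By library it stood at 322 (B10), 971 (mdx), 441 (DBA) and 231 (D2-mdx) CPM in Hhip-only cells, at 438, 387, 70.8 and 647 CPM in Dlk1-only cells and at 81.2, 63.0, 136 and 358 CPM in Tmem171-only cells, so these classes overlapped. The mdx value of Hhip-only cells rests on 18 cells. In marker-positive cells Csrp2 averaged 937 ± 244. Ace, Mfap3l and Svep1 had their highest single-marker means in Hhip-only cells, at 77.6 CPM ± 7.82, 36.6 ± 11.8 and 103 ± 54.2. Car3-only cells had Ptch1 and Islr above the marker-negative level in all 4 libraries, Csrp2 in 3, Igfbp5 in 2 and Gli1 in 1. All these classes share the marker-negative cells, and the values are given as a description with no test.

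**Figure D4:**
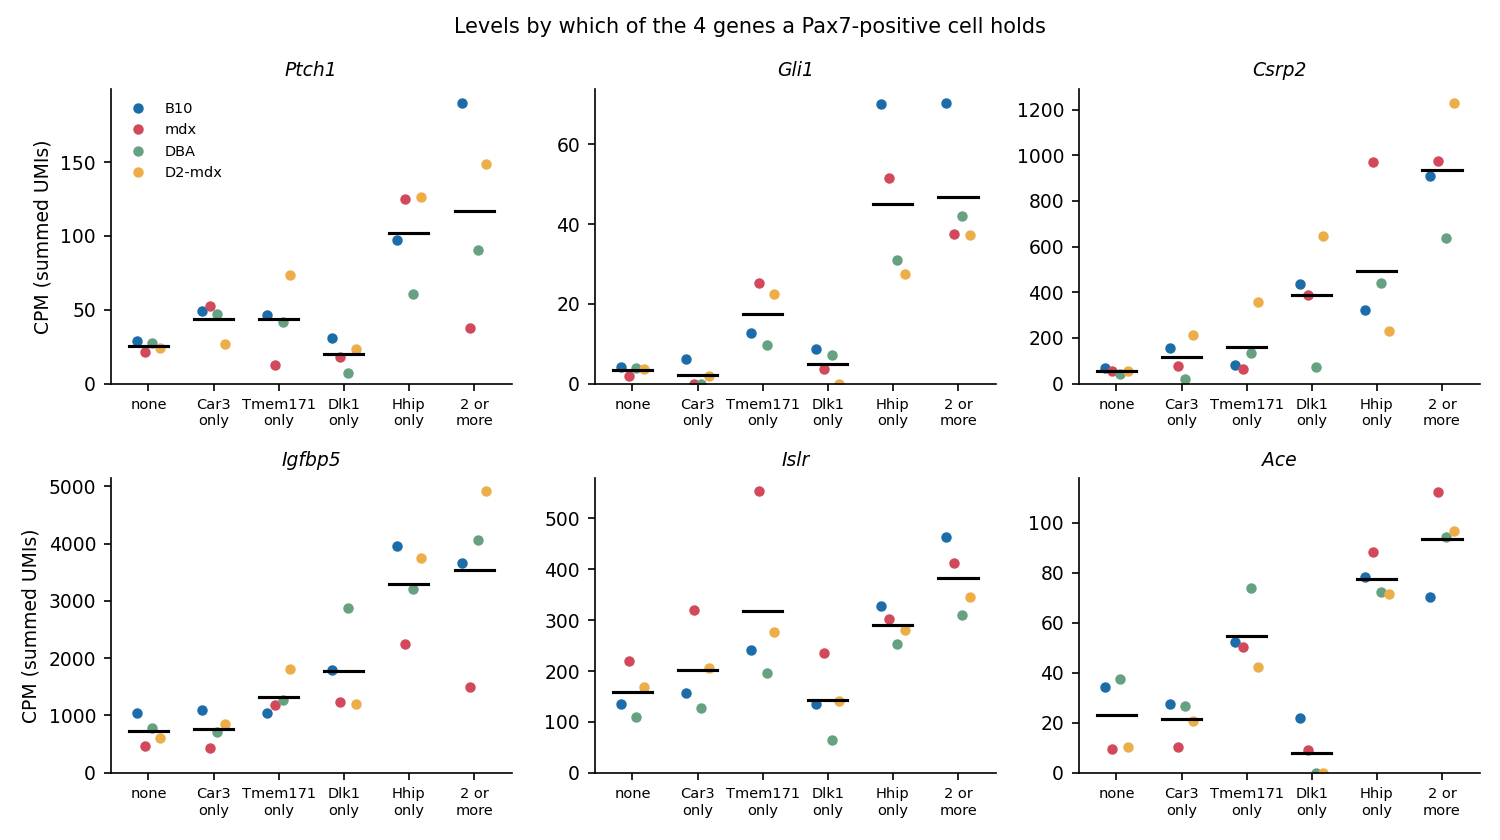
CPM of 6 genes in Pax7-positive cells by which of the 4 genes they held, with a point for each library and a line at the mean of the 4. For Ptch1, Gli1, Igfbp5 and Ace the Hhip-only cells have the highest mean of the 4 single-marker classes.

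Within the marker-positive cells, transcripts parted by the genes that chose them. The 65 cells with only Hhip and Tmem171 were set beside the 39 cells with Dlk1 or Car3, which were 11 B10, 3 mdx, 4 DBA and 21 D2-mdx cells. In this second set 26 cells held Dlk1 and 29 held Car3. Detection of Car3 in endothelial, glial and white blood cells was about equal to that in Pax7-positive cells in D2-mdx and more frequent in DBA. Csrp2 stood at 309 CPM in B10, 467 in DBA and 436 in D2-mdx in the Hhip and Tmem171 cells, and at 1500, 2220.2 and 2122 CPM in the cells with Dlk1 or Car3. Both sets lay above the marker-negative levels. Sln stood at 33.4, 9.30 and 28.1 CPM in the first set and 188, 522 and 434 CPM in the second, and was detected in 4 of 65 and 20 of 39 cells. Dbx1 was detected in 6 of 65 and 18 of 39 cells, Ablim1, an actin-binding LIM protein, in 6 and 19, and Igfbp2 in 1 and 10. For Csrp2 and Sln the direction was shared by B10, DBA and D2-mdx, while the size of the difference varied.

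Other transcripts were common to both sets or ran the other way. Ptch1 was detected in 37 of the 65 and 23 of the 39 cells, and stood at 176, 79.0 and 169 CPM in the Hhip and Tmem171 cells of B10, DBA and D2-mdx and at 205, 196 and 126 CPM in the others. Igfbp5 was found in every cell of both sets. Ace was detected in 42 of 65 and 11 of 39 cells, at 83.6, 102 and 162 CPM against 57.4, 21.8 and 23.7 CPM. Gli1 was detected in 24 and 9 cells and was the lower in cells with Dlk1 or Car3 in DBA and D2-mdx but not in B10. The sets differ in library make-up, the DBA set with Dlk1 or Car3 has 4 cells, and no test was run on them.

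**Figure D5:**
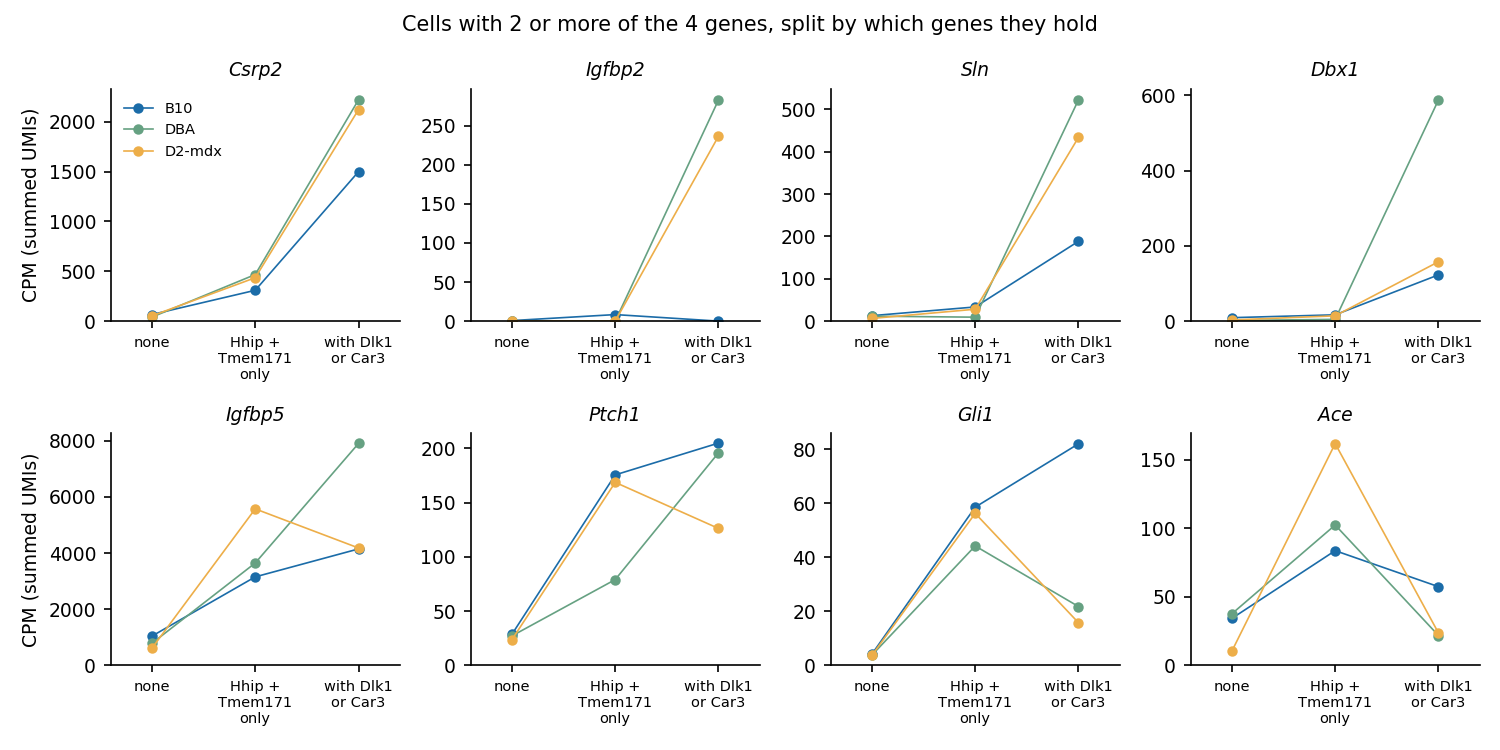
CPM of 8 genes in B10, DBA and D2-mdx, in marker-negative cells (none), in marker-positive cells with only Hhip and Tmem171, and in marker-positive cells with Dlk1 or Car3; mdx is left out, with 1 and 3 such cells. Csrp2 and Sln are highest in the cells with Dlk1 or Car3 in all 3 libraries, while Ace is highest in those with only Hhip and Tmem171.

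Whether the effect differed between dystrophic and control libraries was tested as an interaction on the same 8 sums, with 2 libraries against 2. With edgeR, 21 of 11918 genes (0.176%) passed, and with DESeq2 0 genes passed. Unadjusted p-values under 0.05 numbered 446 of 11918 with edgeR and 118 with DESeq2. Both counts lie below a share of 0.05, which such a threshold passes when no gene differs. Among the 21 were genes of pericytes and smooth muscle, the contractile cells of vessel walls, including Rgs5 and Myh11. Rgs5, a pericyte marker, stood at 8.28 (B10), 0 (mdx), 16.8 (DBA) and 565 (D2-mdx) CPM marker-positive cells, against 42.6, 98.8, 210.3 and 364 CPM. The dystrophic mdx library did not share the high value of D2-mdx, where 12 of 39 cells held Rgs5 and 1 cell held 56 of the 152 UMIs. Colec11, a collectin, had UMIs in 4 D2-mdx marker-positive cells and 0 UMIs in those of the other libraries. With predicted doublets left out, Rgs5 in D2-mdx was 187 CPM against 246 CPM, and 13 genes passed the interaction test. Myh11, Myl9, Vtn, Tinagl1, Gucy1a3, Ifitm1, Mustn1, Ier5 and Ace were no longer among them, with adjusted p-values of 1 for Myh11 and 0.0637 for Ace. In D2-mdx, Myh11 was then 29.7 CPM against 34.0 CPM and Colec11 106 CPM against 34.1 CPM.

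No gene of the Hedgehog list was among the 21. Meg3 passed, as its marker-positive to marker-negative ratio was larger in mdx and D2-mdx, where the marker-negative levels were the lowest (interaction 1.86 on the log2 scale, SE 0.33, adjusted p = 2.70e-05). Svep1, Igf1 and Ace showed the same form. For Ace the marker-positive levels were 70.3 (B10), 112 (mdx), 94.5 (DBA) and 96.6 (D2-mdx) CPM, against 34.3, 9.66, 37.6 and 10.4 CPM in marker-negative cells. Col1a2, a collagen chain, ran the other way, at 103 CPM in B10 and 42.0 in DBA against 10.5 and 24.8 CPM in marker-negative cells, but at 636 in mdx and 171 in D2-mdx against 600 and 339 CPM. Meg3 also varied with the rule genes held. Cells with only Hhip and Tmem171 had 4681 (B10), 2332 (DBA) and 393 (D2-mdx) CPM, and those with Dlk1 or Car3 6998, 4658 and 4220 CPM. The latter were 11 of 21 B10, 3 of 4 mdx, 4 of 40 DBA and 21 of 39 D2-mdx cells. For Meg3, dystrophic status and this make-up cannot be told apart.

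Markers of other cell types were measured in the same sums. The 7 pericyte markers summed to 24.8 (B10), 0 (mdx), 35.7 (DBA) and 873 (D2-mdx) CPM, against 64.6, 163, 304 and 536 CPM in marker-negative cells, and Rgs5 was the most abundant. Of the 7, all tested, Rgs5 alone was called (14.3%, beside 1.99% of all genes). Rgs5 was lower in marker-positive cells (edgeR log2 fold change -0.92, SE 0.20, adjusted p = 0.00209), in B10, mdx and DBA but not in D2-mdx. It did not pass without DBA or in DESeq2. With predicted doublets left out, the D2-mdx sums were 429 against 364 CPM for pericyte markers, 993 against 455 CPM for smooth muscle markers and 284 against 116 CPM for white blood cell markers. The 6 vascular smooth muscle markers summed to 625, 561, 275 and 1141 CPM against 197, 226, 426 and 554 CPM, nearly all of it Tagln, an actin-binding protein. Of the 2 of them tested, Tagln was called higher (50%, beside 1.99% of all genes, log2 fold change 0.82, SE 0.15). In DBA it was lower, at 271 CPM against 364 CPM, and DESeq2 called none of this list. Without B10, Tagln did not pass (0.52, adjusted p = 0.277). White blood cell markers summed to 0, 37.4, 4.20 and 271 CPM against 2.10, 29.8, 9.97 and 117 CPM, with D2-mdx again the highest. In D2-mdx marker-positive cells Cd74 had 36 UMIs and Lyz2 18. Endothelial markers summed to 4.14, 0, 4.20 and 33.4 CPM against 3.62, 14.8, 11.3 and 19.3 CPM. Glial markers summed to 16.6, 56.1, 4.20 and 33.4 CPM against 19.9, 39.6, 22.5 and 58.7 CPM, and tenocyte markers to 66.2, 0, 46.2 and 33.4 CPM against 53.6, 30.7, 21.4 and 51.9 CPM. All 6 adipocyte markers had 0 UMIs in marker-positive cells. In marker-negative cells they summed to only 0.341, 0.318, 0.255 and 0.408 CPM, and fat as a source of Car3 was not tested. The 9 markers of fibro-adipogenic progenitors summed to 923, 1197, 1598 and 1602 CPM against 1375, 1427, 1845 and 1932 CPM, with Col3a1 the most abundant. Of the 6 of them tested, 33.3% were called, beside 1.99% of all genes. Dcn, the proteoglycan decorin, was called higher (edgeR log2 fold change 1.29, SE 0.30, adjusted p = 0.00129) with UMIs in 12 cells. Its levels were 4.14 (B10), 299 (mdx), 21.0 (DBA) and 108 (D2-mdx) CPM against 5.30, 21.4, 4.84 and 92.6 CPM. Col3a1 was called lower (-0.54, SE 0.14), and DESeq2 called neither. The part of RNA from such cells in the D2-mdx values was not tested.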

How the data were processed

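The authors aligned and counted 10X reads with Cell Ranger 3.0.1 against mm10, per the submitters' processing notes, and deposited counts of UMIs per gene and barcode as whole numbers, not normalised. Cells were chosen from these counts. The members and gene lists were chosen with earlier results of these data known. UMIs of each class were summed per library and tested with edgeR 4.0.16 (R 4.3.3) by the quasi-likelihood test, with TMM factors, the library as a block, 3 residual degrees of freedom and Benjamini-Hochberg adjustment at 0.05. The rule genes and mitochondrial genes counted towards library sizes and were not tested. SEs were the absolute log2 fold change over the square root of F. The libraries are of different strains. The spread behind p-values and SEs is estimated partly from all genes, so neither gives a gene's own spread over these libraries. Named genes were the rule genes; the 16 largest rises (8 met the conditions) and 12 largest falls past the threshold, in 1 direction in all 4 libraries and with at least 20 UMIs per library in the higher class; the Hedgehog and Notch lists; up to 6 called genes of each other list that moved alike in all 4 libraries; and the most abundant marker of each other cell type. Others were named after their values were seen. Some genes are not reported here and were left out of the lists. Doublets were predicted with Scrublet in scanpy 1.11.5 and kept except where stated. DESeq2 1.42.0 and other cell rules served as alternatives. On simulated counts for 12243 genes, 76.7% of 4-fold and 38.1% of 2-fold changes were recovered in the comparison of marker-positive with marker-negative cells. The simulation gave every library the same mean profile, the same changes and a fixed spread, and left the rarest genes unchanged. These rates may therefore not hold for the real sums. Gene positions come from GENCODE M21 on mm10.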

Additional observations from a re-analysis of the deposited data

Results flagged for a closer look

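Ratios of marker-positive to marker-negative level in 1 library lay far from those of the other 3 for 6 of the 104 named genes that were tested, where chance gives such a gap in about 1 of 20. On the log2 scale, Col15a1 stood at -3.68 in mdx, Nppc at -3.70, Neat1 at -3.04 and Nes at -2.83. In mdx marker-positive cells Col15a1 and Nes had 0 UMIs, so their ratios are set by the prior count of 0.5, while Nppc had 1 UMI and Neat1 4. Lpl stood at -1.40 in B10, and Hey1, a Notch target, at -0.66 in D2-mdx.

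The effect differed between dystrophic and control libraries, by edgeR's interaction term, for 21 genes. The interaction (dystrophic minus control) was positive, on the log2 scale, for Rgs5 (3.73), Meg3 (1.86), Svep1 (2.36), Myl9 (1.74), Vtn (2.12), Tinagl1 (4.95), Myh11 (3.70), Ace (2.05), Cpe (4.94), Mustn1 (4.75), Igf1 (1.34), Gucy1a3 (4.77) and Sorcs2 (2.60). In mdx, marker-positive cells had 0 UMIs of Rgs5, Tinagl1, Myh11, Cpe and Gucy1a3, which at this depth allows up to 69.0 CPM (exact 95% Poisson limit), a limit above the D2-mdx level of Gucy1a3 (63.2 CPM) and little below that of Myh11 (78.0 CPM). With predicted doublets left out, Myl9, Vtn, Tinagl1, Myh11, Ace, Mustn1 and Gucy1a3 did not pass, and D2-mdx marker-positive cells were no longer higher for Rgs5 (187 against 246 CPM) or Myh11 (29.7 against 34.0 CPM), while Colec11 (106 against 34.1 CPM) stayed higher. The fitted values of Ifitm1 (11.76, not passing without doublets) and Colec11 (11.95) rest on 0 UMIs in the marker-positive cells of the other 3 libraries and are no bound. The interaction was negative for Col1a2 (-2.48), Plagl1 (-2.33), Esm1 (-7.40), Tnnt2 (-5.93), Ucp2 (-2.21) and Ier5 (-2.03). Several rest on single cells. For Cpe 25 of 29 and for Colec11 23 of 28 D2-mdx UMIs lay in 1 cell. All 14 DBA and all 10 D2-mdx UMIs of Esm1 lay in 1 cell each, with 0 in B10 and mdx, and all 3 DBA UMIs of Tnnt2 lay in 1 cell, with 0 in mdx. No gene passed this test in DESeq2.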

How the results depend on the processing

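Of the shares, thinning to 3000 UMIs gave 0.147%, 0%, 0.343% and 0.677% (in the order B10, mdx, DBA, D2-mdx), requiring 3 genes gave 0.0886%, 0%, 0.0366% and 0.124%, and leaving Car3 out of the rule gave 0.746% for D2-mdx. The higher genes, 142 in the reported fit, numbered 71 with DESeq2, 8 without the library as a replicate block, 14 thinned, 94 without Car3 in the rule, 16 with 3 genes required, 18 against an equal number of comparison cells, and 82 to 145 when 1 library was left out. The lower genes, 95 as reported, numbered 15, 1, 41, 12 and 12 with DESeq2, without the block, thinned, with 3 genes required and with equal numbers, and 40 to 98 when 1 library was left out. The block pairs the classes of the same library. The interaction gave 0 genes with DESeq2 and 13 with predicted doublets left out. S100a6 turned to -0.57 with 3 genes required, and Tagln to -0.10 thinned and -0.61 with 3 genes required; the causes were not tested. The median log2 fold change of all genes tested was -0.09 as reported, -0.33 without the filter on low counts, -0.59 thinned and -0.88 with 3 genes required. The equal-number comparison and the interaction without doublets were chosen after seeing the data. The thinned and 3-gene rules leave no mdx member. The mdx class holds 4 cells, which limits its levels.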
